A study of Mus musculus with 24 samples.

Results

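Resting Th1-primed mouse CD4+ T cells grown with 0.25 µM I-BET-762, a small-molecule inhibitor of BET proteins, were compared with the same cells grown with a control substance. The comparison holds 9 of the 24 arrays of the series: 3 with 0.25 µM I-BET-762, 3 with DMSO and 3 with Control-768, the compound control, whose concentration the sources used here do not give. Members were all genes with a named probe set, 18193 in all, each represented by its probe set of highest mean intensity, and the 6 control arrays formed 1 group. The CD4+ T cells came from C57BL/6 mice carrying the 2D2 T cell receptor transgene, a receptor specific for a myelin protein. All 9 cultures were primed for 48 h in Th1 conditions on plates coated with antibodies to CD3 and CD28, with the named substance in the medium, then taken off the antibodies and expanded for 2 days. RNA was then taken from these resting cells, with no restimulation. The other 15 arrays hold resting cells with 0.5 µM I-BET-762 and the 4 matching groups after 4 h of restimulation, and they enter only where named. The submitters describe 3 biological replicates per group.

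BET proteins, such as Brd2 and Brd3, carry bromodomains that bind acetylated lysines on histone tails. They recruit the elongation factor P-TEFb and other transcription machinery to promoters and enhancers, and inhibitors such as I-BET-762 occupy the acetyl-lysine pocket and displace them from chromatin. In T cells they are studied chiefly for their part in cytokine genes, in Myc and in the differentiation of helper lineages.

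Median intensities of the 9 arrays ran from 37.4 to 40.9 and replicates of a group correlated at 0.983 to 0.994, on the linear scale the authors deposited. The arrays numbered 3 stood apart from those numbered 1 and 2 in every group: their deviations from the group means had a standard deviation of 0.26 to 0.29 on the log2 scale, against 0.19 to 0.20. Myc shows the gap, with 5928, 5978 and 1754 in DMSO replicates 1, 2 and 3. Same-numbered arrays deviated together, so every difference below was fitted with the replicate number as a block, and values for 3 arrays are given in the order of replicates 1, 2 and 3. T cell markers were bright: the summed intensity of 8 measured T cell markers lay between 36448 and 37350 in the controls and between 35441 and 38720 with I-BET-762. Over the 9 arrays, mean intensities were under 16 for 3 of 7 B cell markers (Cd79a, Pax5, Ebf1), for 6 of 10 myeloid markers, Cd14 and Itgam among them, and for all 4 erythroid markers. The B cell markers summed to 107 to 156 in the controls and 103 to 135 with I-BET-762, and the myeloid markers to 276 to 320 and 273 to 281. The 10 measured dendritic cell and MHC class II markers summed to 1676 to 2733 in the controls and 1718 to 2323 with I-BET-762, mostly H2-Ab1, and the 6 NK cell markers to 131 to 177 and 151 to 181.

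At 0.25 µM, I-BET-762 changed 513 genes, most of them by less than 2-fold, while the median gene lay close to 0. With limma and Benjamini-Hochberg adjustment over all 18193 genes, these 513 genes (2.82%) passed an adjusted p of 0.05: 156 were higher (0.857%) and 357 lower (1.96%). The median difference over all genes was -0.0085 on the log2 scale, and the median size among the 513 was 0.52, with quartiles of 0.40 and 0.73. Differences are given as log2(intensity + 16) of I-BET-762 minus both controls, with the standard error, so that differences of dim genes are understated. A change of at least 2-fold was seen in 63 of the called genes (0.346% of all genes), 25 higher and 38 lower. In 289 of the 513 the 3 treated arrays did not overlap the 6 control arrays, 99 above and 190 below, where 2.06% of all genes lay entirely above and 2.57% entirely below. In these RNA extracts of whole cultures, fewer cells of a type and less RNA per cell cannot be told apart. The count depends on the replicate block and on single arrays: 54 genes passed without the block, 13, 7 and 205 without replicate 1, 2 or 3 of every group, and 142 to 361 without any 1 array. All 513 kept their sign in each of those fits, which reuse the arrays on which they were called, so this is no independent support.

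**Figure D1:**
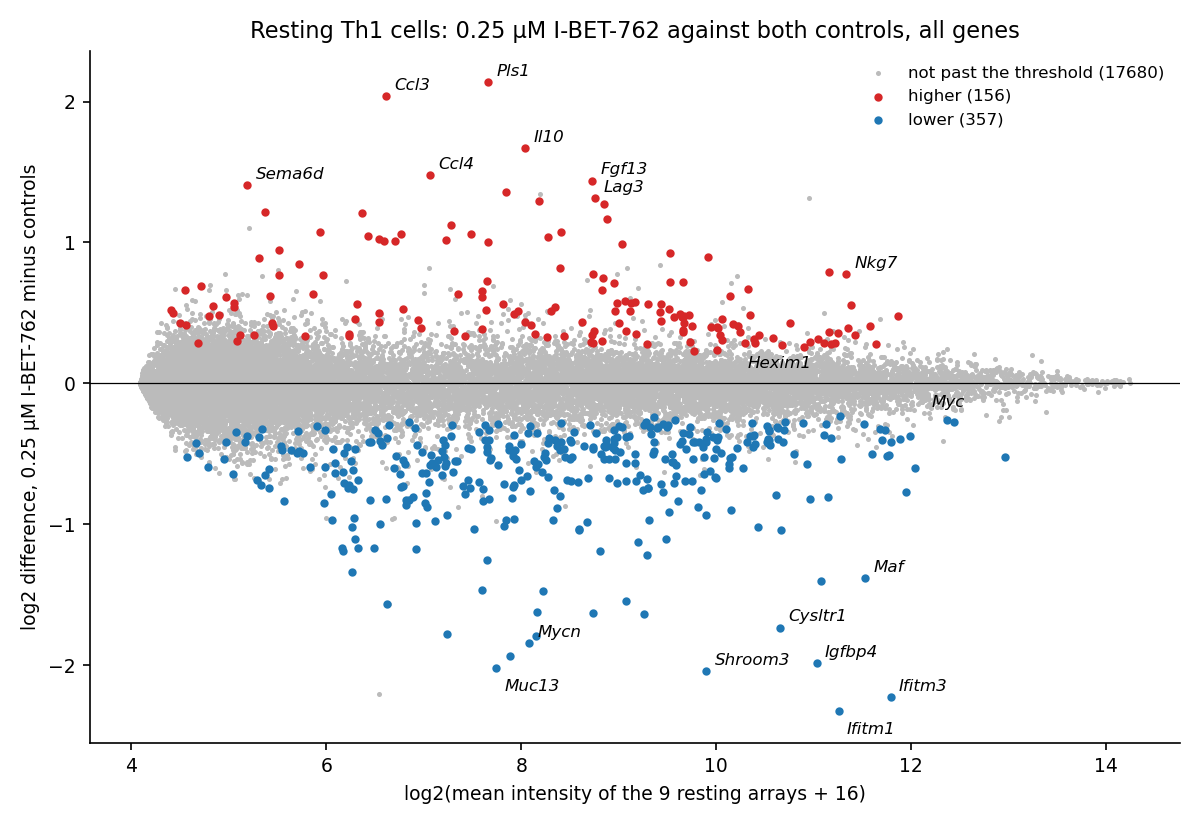
Log2 difference of 0.25 µM I-BET-762 from both controls (vertical axis) against the log2 mean intensity of the 9 resting arrays (horizontal axis) for 18193 genes. The 156 genes past the threshold and higher are red, the 357 lower are blue; Pls1 at 2.14 and Ifitm1 at -2.33 mark the ends, and Myc and Hexim1 lie in the grey band.

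The 2 largest falls belonged to a cluster of interferon-induced transmembrane genes. Ifitm1 and Ifitm3 encode small membrane proteins best known for blocking the entry of enveloped viruses. Ifitm1 read 2198, 2167 and 5412 with DMSO, 2353, 2199.8 and 5612 with Control-768 and 454, 416 and 1066 with I-BET-762. Every treated array was below every control array, as the choice of the largest falls required, and replicate 3 ran higher in all 3 groups. The difference was -2.33 ± 0.049, adjusted p = 6.64e-06, a 5.02-fold fall. Ifitm3 read 3942, 3792 and 6629 with DMSO, 3921, 3731 and 6631 with Control-768 and 812, 734 and 1534 with I-BET-762 (-2.23 ± 0.056, adjusted p = 1.18e-05). The replicates gave similar falls, -2.25, -2.33 and -2.10. Ifitm2 (-1.40 ± 0.13, adjusted p = 0.00394) and Ifitm6 (-1.03 ± 0.13, adjusted p = 0.0126), looked up after those values were seen because they lie next to the first pair in RefSeq's gene order on chromosome 7, fell as well. Ifitm2 went from control values of 2188 to 3355 to treated values of 1079.7, 1039.5 and 899, and Ifitm6 from control values of 154 to 268 to treated values of 70.6, 101 and 100.3, neither with any overlap. Ifitm1, Ifitm3 and Ifitm2 kept their calls without each array in turn, and Ifitm6 lost its own without any 1 of 2 (0.0781 at most, without I-BET-762 replicate 2). The 4 promoter windows, from 250 bases before to 50 after the start, are shown because all 4 neighbours fell. They are from RefSeq, build GRCm38.p6, 5′ to 3′ on the gene's strand, with capitals marking matches to 5 searched motifs: the E-box CACGTG, the AP-1 motif TGANTCA, the STAT motif TTCNNNGAA, the TATA box TATAAA and the core of the interferon-stimulated response element (ISRE), which is a pair of GAAA blocks with any 2 bases between, on both strands.
Ifitm2, chr7:140955912-140956211, minus strand: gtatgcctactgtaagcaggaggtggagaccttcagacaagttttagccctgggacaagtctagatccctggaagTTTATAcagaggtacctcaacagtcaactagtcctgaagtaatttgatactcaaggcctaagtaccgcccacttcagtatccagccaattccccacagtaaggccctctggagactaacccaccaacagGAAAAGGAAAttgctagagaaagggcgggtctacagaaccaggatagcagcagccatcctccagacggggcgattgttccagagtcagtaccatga
Ifitm1, chr7:140967826-140968125, plus strand: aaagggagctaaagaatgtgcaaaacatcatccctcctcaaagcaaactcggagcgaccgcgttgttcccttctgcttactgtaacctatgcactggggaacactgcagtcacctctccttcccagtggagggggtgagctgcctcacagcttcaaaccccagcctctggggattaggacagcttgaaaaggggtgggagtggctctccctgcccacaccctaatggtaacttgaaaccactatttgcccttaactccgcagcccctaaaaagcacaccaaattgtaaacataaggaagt
Ifitm3, chr7:141010695-141010994, minus strand: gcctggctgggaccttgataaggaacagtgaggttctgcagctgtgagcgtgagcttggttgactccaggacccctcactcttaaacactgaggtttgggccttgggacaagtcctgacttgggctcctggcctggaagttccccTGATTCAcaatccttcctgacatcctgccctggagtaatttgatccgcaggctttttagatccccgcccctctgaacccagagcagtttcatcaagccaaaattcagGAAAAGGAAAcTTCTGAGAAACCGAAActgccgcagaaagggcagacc
Ifitm6, chr7:141016843-141017142, minus strand: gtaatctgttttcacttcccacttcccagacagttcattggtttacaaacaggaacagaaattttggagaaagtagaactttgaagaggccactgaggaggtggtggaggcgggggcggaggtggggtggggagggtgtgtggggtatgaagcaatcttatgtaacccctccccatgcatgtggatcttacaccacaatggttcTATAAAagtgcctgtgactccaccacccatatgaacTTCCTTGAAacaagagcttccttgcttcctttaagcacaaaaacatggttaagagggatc
The Ifitm3 window holds 2 ISRE core matches just after the start, the later of which overlaps a TTCNNNGAA match. A TGANTCA match lies further upstream. Ifitm2 has 1 ISRE core match and a TATAAA match on the opposite strand, Ifitm6 has TTCNNNGAA and TATAAA, and Ifitm1 has no match in this window. Of 32851 RefSeq windows of this length, the ISRE core occurs in 3.44%, TTCNNNGAA in 8.3%, TGANTCA in 7.81%, TATAAA in 13.62% and CACGTG in 7.15%. Among the 397 windows of genes called lower the shares were 4.79%, 9.07%, 7.81%, 9.32% and 5.54% in that order, and among the 164 windows of genes called higher 4.88%, 5.49%, 6.71%, 7.93% and 7.93%.

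Shroom3, Muc13, Igfbp4, Itpripl2, F3, Itga7 and Tmem108 were also among the 12 largest falls. Shroom3, an actin-binding protein of apical constriction, read 1319, 1513 and 843 with DMSO, 1261, 1587 and 999 with Control-768 and 220.3, 507 and 205 with I-BET-762 (-2.04 ± 0.15, adjusted p = 0.00191). Of its 5 probe sets, 4 gave -1.44 to -2.04, and the fifth, with a mean control intensity of 12.2, gave 0.083; all 5 are of types that can match other transcripts. Igfbp4, a secreted binding protein of insulin-like growth factors, fell from control values of 2205 to 3550.0 to treated values of 744, 689 and 609.7 (-1.99 ± 0.13, adjusted p = 0.00134), and 5 of its 6 probe sets gave -1.84 to -2.04. Muc13, a transmembrane mucin, went from control values of 185 to 339 to treated values of 55.0, 31.9 and 79.4 (-2.02 ± 0.27, adjusted p = 0.0149), or -1.27 with its probe set that has no shared suffix. These 3 genes had no overlap between treated and control arrays, which the choice of the 12 largest falls required. F3, tissue factor, the trigger of coagulation, went from control values of 104 to 236 to treated values of 23.9, 57.4 and 43.5 (-1.78 ± 0.22, adjusted p = 0.0114). Itga7, the alpha chain of a laminin-binding integrin, went from control values of 457 to 656 to treated values of 215, 200.16 and 92.0 (-1.63 ± 0.17, adjusted p = 0.00615). Itpripl2 (-1.93 ± 0.14, adjusted p = 0.0018) and Tmem108 (-1.63 ± 0.12, adjusted p = 0.00216) fell too, both without overlap. Of 2 dimmer probe sets of Tmem108, 1 gave a difference the other way (0.45, unadjusted p = 0.00721, mean control intensity 9.69). Acsl6, an acyl-CoA ligase, had a fall of similar size (-1.79 ± 0.25, adjusted p = 0.0185) but is not one of the 12 because its control values in replicate 3, 71.8 and 70.5, overlapped the treated arrays. Leaving out 1 array ended the call of Muc13 (I-BET-762 replicate 1 removed, adjusted p = 0.0883) and of F3 (I-BET-762 replicate 2 removed, 0.0596), and of no other of the 12 largest falls. That of Acsl6 was lost without any 1 of 6 (0.101 at most, without I-BET-762 replicate 2).

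**Figure D2:**
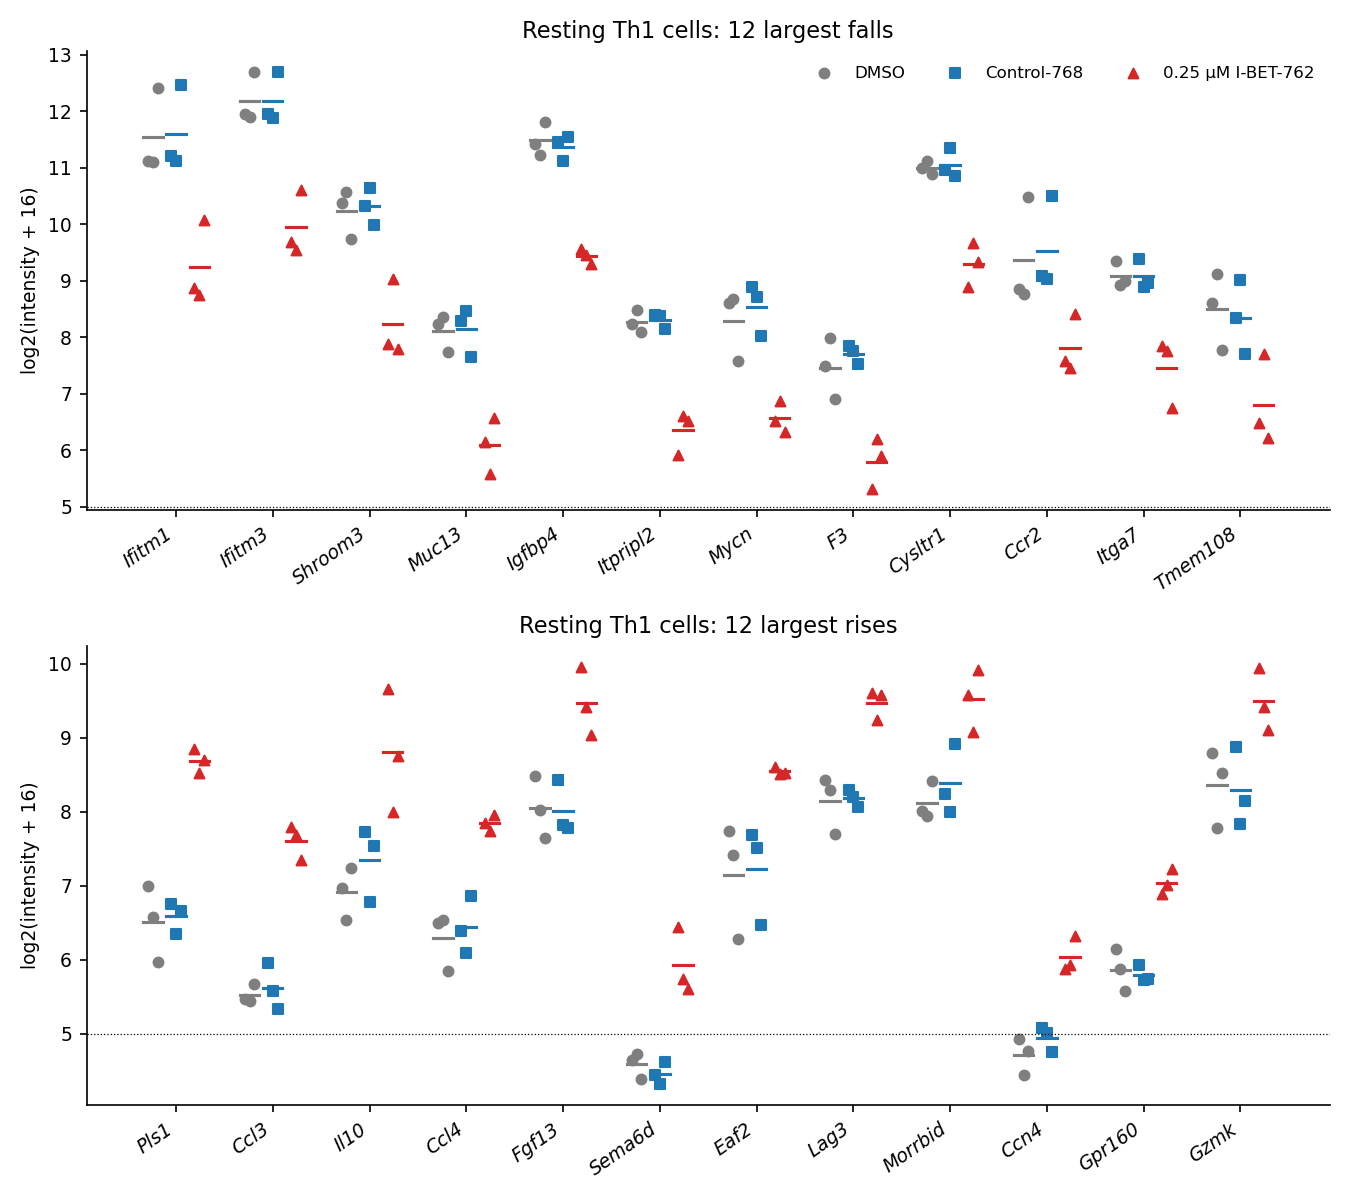
Values of the 9 arrays as log2(intensity + 16) for the 12 largest falls (top) and 12 largest rises (bottom); grey circles are DMSO, blue squares Control-768 and red triangles 0.25 µM I-BET-762, the bars are group means, and the dotted line marks intensity 16. In each of the 24 genes the 3 triangles lie clear of the 6 control points, as the choice of the genes required.

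Cysltr1 and Ccr2 led the falls among receptors for chemoattractants, and Ccl3, Ccl4 and Ccl5 rose. Of 17 measured chemokine and leukotriene receptors, 3 passed the threshold, all lower, and the median difference was -0.27 with 3 members above 0. Of all genes 2.82% were called, 1.96% lower. Cysltr1, a receptor for cysteinyl leukotrienes, read 2024, 2218 and 1874 with DMSO, 1975, 2589.8 and 1839 with Control-768 and 455, 796 and 630.3 with I-BET-762 (-1.73 ± 0.11, adjusted p = 0.00139), and its other probe set gave -1.90. Ccr2, the receptor for Ccl2 and its relatives, read 445, 422 and 1405 with DMSO, 525, 508 and 1425 with Control-768 and 175, 159 and 324 with I-BET-762 (-1.64 ± 0.14, adjusted p = 0.00321). Its controls were higher in replicate 3, and the highest treated array stayed below the lowest control. Ltb4r1, a leukotriene B4 receptor, went from control values of 859.9 to 1065 to treated values of 648, 676 and 635 (-0.53 ± 0.065, adjusted p = 0.0112; 0.0547 without I-BET-762 replicate 2). The next members by p-value were the lymph node homing receptor Ccr7 (-0.56 ± 0.12, adjusted p = 0.0574) and S1pr1 (-0.32 ± 0.069, adjusted p = 0.0662), neither past the threshold. Of 14 chemokines 3 were called, all higher, where 0.857% of all genes were called higher, and the median of the list was -0.044. Ccl3 and Ccl4, inflammatory chemokines, lie side by side on chromosome 11. Ccl3 read 28.3, 27.4 and 34.8 with DMSO, 45.8, 31.6 and 24.3 with Control-768 and 206, 189.5 and 147 with I-BET-762, a 4.11-fold rise (2.04 ± 0.13, adjusted p = 0.00134), or 1.35 with a pseudocount of 64. Ccl4 rose from control values of 41.4 to 100.2 to treated values of 215, 197 and 233 (1.48 ± 0.22, adjusted p = 0.0206). Ccl5, a chemoattractant of T cells and monocytes, read 313, 201 and 521 with DMSO, 348, 199.87 and 661 with Control-768 and 610.1, 399 and 1336 with I-BET-762 (0.99 ± 0.094, adjusted p = 0.0045). Each treated array was above its own replicate's controls while the groups overlapped, with replicate 3 higher throughout. Ccl4 lost its call without any 1 of 6 of the 9 arrays (highest adjusted p = 0.0971, without I-BET-762 replicate 1).

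Il10 rose, and 4 other cytokine genes fell. Of 23 measured cytokine genes 1 was called higher and 4 lower, against 2.82% of all genes, with a median of 0.0095. Il10, the main anti-inflammatory cytokine of helper T cells, read 109, 77.1 and 136 with DMSO, 196, 93.8 and 170.4 with Control-768 and 790.0, 240.2 and 415 with I-BET-762 (1.67 ± 0.24, adjusted p = 0.0188). Replicate 2 was the lowest in all 3 groups, and no treated array overlapped the controls. Il24, of the Il10 family, fell from control values of 33.7 to 109 to treated values of 25.01, 31.3 and 21.9 (-1.10 ± 0.18, adjusted p = 0.0291). The chemoattractant cytokine Il16 fell from control values of 1195 to 1574 to treated values of 1208, 990.3 and 1011 (-0.37 ± 0.062, adjusted p = 0.0298). Lta, lymphotoxin alpha (-0.51 ± 0.091, adjusted p = 0.0351), and Tnfsf11, RANK ligand (-0.72 ± 0.14, adjusted p = 0.0446), were the other 2 called lower. Ifng, the defining Th1 cytokine, read 1195, 641 and 523 with DMSO, 1470.5, 645 and 758 with Control-768 and 1924, 545 and 1737 with I-BET-762. The treated value was above both controls in replicates 1 and 3 and below both in replicate 2. The difference did not pass (0.58 ± 0.28, adjusted p = 0.372). Il2 (0.23 ± 0.19, adjusted p = 0.61) and Csf2 (-0.33 ± 0.19, adjusted p = 0.446) had mean control intensities of 19.8 and 30.2 and did not pass. Il3 was the lowest member of the list and was singled out after its values were seen. It read 158, 191 and 9.77 with DMSO, 149, 171 and 3.54 with Control-768 and 2.53, 6.00 and 2.61 with I-BET-762. There was a wide gap in replicates 1 and 2 and low controls in replicate 3 (-2.21 ± 0.52, adjusted p = 0.0831). The called cytokines lost their call without any 1 of this many of the 9 arrays, with the highest adjusted p in each case: Il10 (4, 0.0696 without I-BET-762 replicate 1), Il24 (7, 0.133 without I-BET-762 replicate 2), Il16 (8, 0.13 without I-BET-762 replicate 2), Lta (8, 0.147 without I-BET-762 replicate 2) and Tnfsf11 (7, 0.161 without I-BET-762 replicate 2). With a pseudocount of 64 Il24 gave -0.64.

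Among cytokine receptors, Il7r and Il1r2 fell and Il21r and Il6st rose. Of 21 measured members 2 were higher and 2 lower, against 0.857% and 1.96% of all genes, with a median of -0.029. Il7r, the receptor for the survival cytokine Il7, read 4564, 4153 and 2519 with DMSO, 4783, 4073 and 2805 with Control-768 and 3314, 2899 and 1812 with I-BET-762 (-0.52 ± 0.054, adjusted p = 0.00599), a fall of nearly the same size in each replicate (-0.49, -0.50 and -0.55). Il6st, the shared gp130 chain of the Il6 receptor family, went from control values of 394 to 552 to treated values of 749, 597 and 749.5 (0.57 ± 0.095, adjusted p = 0.0302). Il21r rose from control values of 606 to 843 to treated values of 1299.9, 855 and 822 (0.48 ± 0.073, adjusted p = 0.0236). Il1r2, the decoy receptor of Il1, was the other called lower (-0.74 ± 0.12, adjusted p = 0.0304). Il7r kept its call without each array in turn. Il6st lost it without any 1 of 8 arrays (0.106 at most, without I-BET-762 replicate 1), Il1r2 without any 1 of 7 (0.11 at most, without I-BET-762 replicate 2) and Il21r without any 1 of all 9 (0.076 at most, without Control-768 replicate 1).

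Lag3, Havcr2, Btla and Pdcd1, inhibitory receptors of activated T cells, rose. Of 11 measured, these 4 were called higher and none lower, where 0.857% of all genes were called higher, and the median difference was 0.13. Lag3, which binds MHC class II in competition with CD4, read 330.2, 297 and 191 with DMSO, 297, 277 and 252 with Control-768 and 762, 590.2 and 749 with I-BET-762 (1.31 ± 0.14, adjusted p = 0.00628). Havcr2, which encodes Tim-3, read 27.9, 34.7 and 72.3 with DMSO, 39.2, 30.4 and 76.8 with Control-768 and 93.6, 72.5 and 181 with I-BET-762 (1.05 ± 0.093, adjusted p = 0.00375). Lag3 did not overlap its controls and Havcr2 did, through its higher replicate 3; with a pseudocount of 64 Havcr2 gave 0.67. Btla, a receptor for the herpesvirus entry mediator, rose from control values of 2898 to 3676 to treated values of 5064, 4299 and 4334 (0.47 ± 0.051, adjusted p = 0.00693). Pdcd1, which encodes PD-1, rose from control values of 106 to 181 to treated values of 215, 268 and 216 (0.61 ± 0.11, adjusted p = 0.0389). Its call was lost without any 1 of 8 arrays (0.148 at most, without I-BET-762 replicate 2). Ctla4 (0.13 ± 0.080, adjusted p = 0.487) and Lair1 (-0.23 ± 0.072, adjusted p = 0.169) did not pass, and Tigit has no value here.

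Of the helper lineage genes, Tbx21 rose and Maf fell. Tbx21, which encodes T-bet, the lineage factor of Th1 cells, read 1042, 1039 and 1278 with DMSO, 1041, 1099 and 1321 with Control-768 and 1578, 1531 and 1656 with I-BET-762 (0.48 ± 0.060, adjusted p = 0.0117), with no overlap. It and Havcr2 were the 2 of 16 measured Th1 genes called, both higher, and the median of that list was 0.018. Over all genes 2.82% were called, 0.857% higher and 1.96% lower. Maf, a factor that activates Il4 in Th2 cells and Il10 in several helper subsets, read 3092, 2379 and 5425 with DMSO, 3083, 2787 and 5519 with Control-768 and 1172, 1042 and 1966 with I-BET-762 (-1.38 ± 0.066, adjusted p = 7.35e-04). Its treated arrays lay below all controls, and 4 of its 6 probe sets fell by 1.30 to 1.63 on the log2 scale. With Nfil3 (-0.40 ± 0.069, adjusted p = 0.0326) and Stat6 (-0.34 ± 0.065, adjusted p = 0.0437), the signal transducer of Il4, it made up the 3 of 11 Th2 genes called, all lower (median -0.22). Gata3, the lineage factor of Th2 cells, lay the other way without passing (0.57 ± 0.12, adjusted p = 0.0662), as its array values show: 105 to 402 in the controls and 229, 159 and 528 with I-BET-762. Batf, an AP-1 factor of Th17 and follicular helper cells, was the 1 of 8 Th17 genes called (0.40 ± 0.069, adjusted p = 0.0329). Ebi3, a subunit of Il27 and Il35, fell (-0.88 ± 0.15, adjusted p = 0.0336) and Il10 rose among 13 regulatory T cell genes. The 12 follicular helper genes held 3 called higher, Btla, Pdcd1 and Tox2, and Tox2 (0.85 ± 0.17, adjusted p = 0.0482) is uncertain because its other probe set gave -0.66 with an unadjusted p of 0.147. With a pseudocount of 64 Tox2 gave 0.47. Maf kept its call without each array. These lost theirs without any 1 of this many arrays, with the highest adjusted p: Tbx21 (2, 0.0722 without I-BET-762 replicate 2), Nfil3 (7, 0.143 without I-BET-762 replicate 1), Stat6 (9, 0.166 without I-BET-762 replicate 1), Batf (9, 0.139 without I-BET-762 replicate 1), Ebi3 (7, 0.147 without I-BET-762 replicate 2) and Tox2 (8, 0.164 without I-BET-762 replicate 1).

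Nkg7 and Gzmk, genes of cytotoxic granules, rose, and the lectin receptors Klrb1f and Klrd1 fell. Nkg7, a granule membrane protein, read 2089, 1489.8 and 2663 with DMSO, 1987, 1551 and 2619.5 with Control-768 and 3518, 2607 and 4497 with I-BET-762 (0.77 ± 0.046, adjusted p = 0.00134), 1.71-fold higher. Gzmk, granzyme K, rose from control values of 203 to 454 to treated values of 972, 664 and 537 (1.17 ± 0.15, adjusted p = 0.0142; 0.0766 without I-BET-762 replicate 1). These were the 2 of 17 cytotoxicity genes called, with a list median of -0.017, and Prf1, perforin, did not pass (0.64 ± 0.14, adjusted p = 0.0661). Klrb1f read 223, 126 and 364 with DMSO, 221, 134 and 325 with Control-768 and 68.3, 47.6 and 95.2 with I-BET-762 (-1.46 ± 0.093, adjusted p = 0.00134). Klrd1, which encodes CD94, went from control values of 104 to 169 to treated values of 73.5, 77.5 and 117 (-0.51 ± 0.078, adjusted p = 0.0234; lost without any 1 of 7 arrays, 0.115 at most, without I-BET-762 replicate 1). Both are among 10 lectin receptors measured, of which none was called higher. Of all genes 0.857% were called higher and 1.96% lower. Beside these results, the 2 CD8 T cell markers summed to 412 to 601 in the controls and 458 to 632 with I-BET-762, and none of the 6 NK cell markers was called. The 5 gamma delta T cell markers summed to 507 to 832 in the controls and 420 to 427 with I-BET-762. The brightest of them was Trgv4, which read 328, 339 and 573 with DMSO, 320.4, 256 and 576 with Control-768 and 226, 200.04 and 178 with I-BET-762 (-0.87 ± 0.21, adjusted p = 0.089). The part of such cells in the results was not tested.

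**Figure D3:**
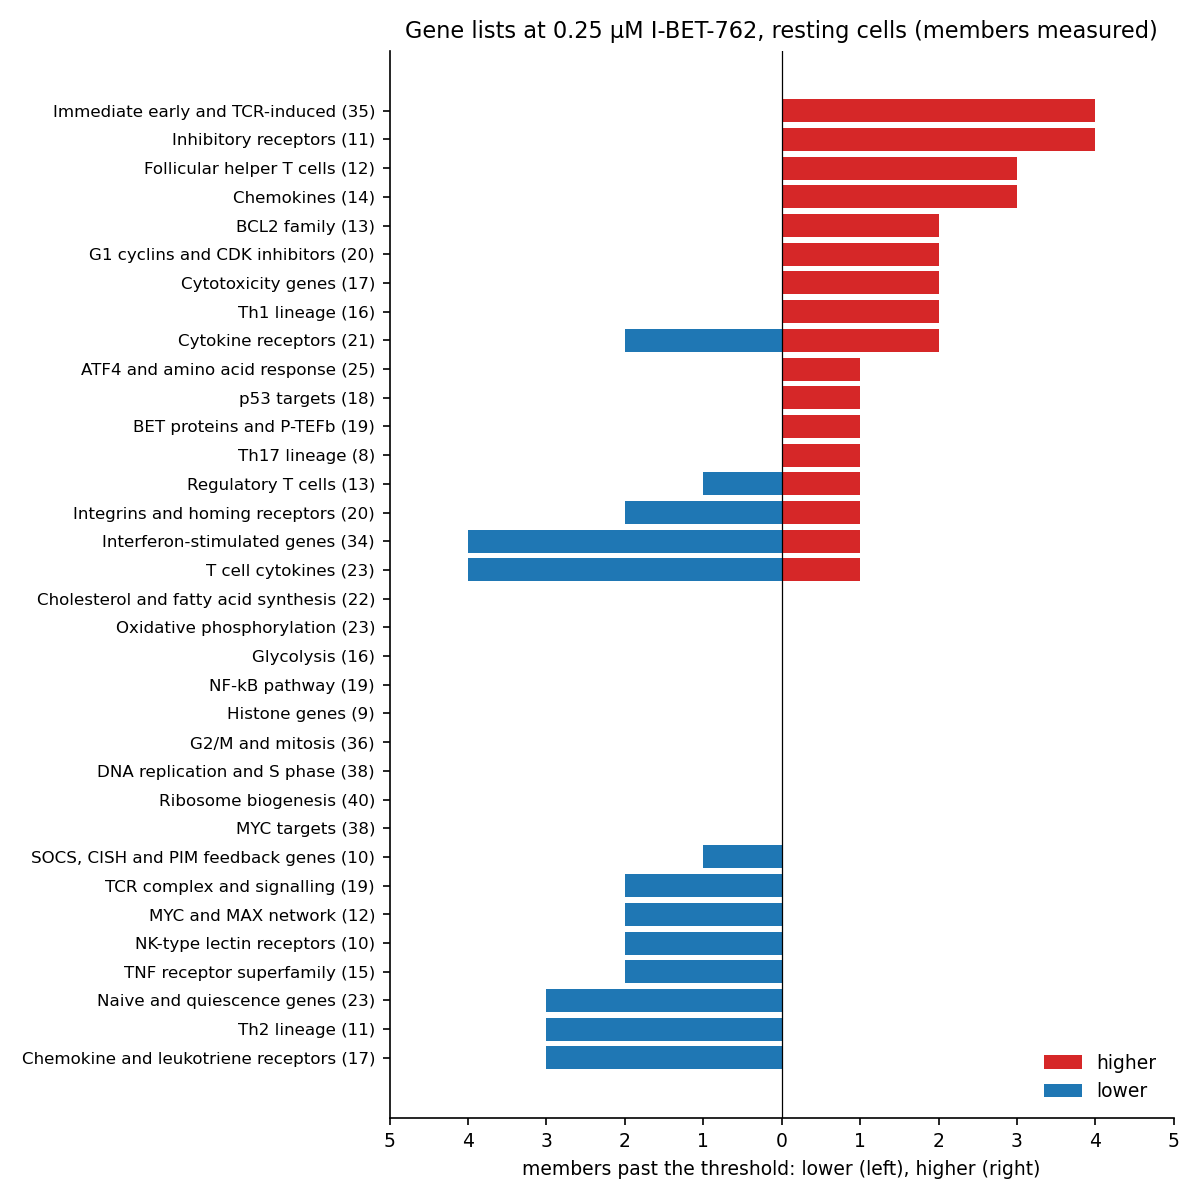
Number of members past the threshold, lower to the left and higher to the right, in each of 34 gene lists; the number measured is in brackets. Immediate early genes and inhibitory receptors have 4 members higher, and 9 lists, among them MYC targets, have none in either direction.

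Brd2, Brd3, Hexim1 and Myc did not pass the threshold, while Mycn fell and Ell2 rose. Brd2 read 3117, 3105 and 3204 with DMSO, 3123, 3193 and 3296 with Control-768 and 3173, 3207 and 2596 with I-BET-762 (-0.091 ± 0.075, adjusted p = 0.624), and Brd3 gave -0.049 ± 0.046, adjusted p = 0.672. Hexim1, an inhibitor of P-TEFb whose RNA is often used as a sign of BET inhibition, read 1248, 1229 and 1027 with DMSO, 1362, 1259 and 858 with Control-768 and 1510.2, 1443 and 802 with I-BET-762. It was higher than both controls in replicates 1 and 2, lower in replicate 3, and not past the threshold (0.066 ± 0.10, adjusted p = 0.819). A dimmer probe set of Hexim1, which has no shared suffix, gave 0.39 (unadjusted p = 0.0247 with limma, mean control intensity 61.8). Among 19 BET and P-TEFb genes 1 was called, the elongation factor Ell2, which read 743, 765 and 603 with DMSO, 783, 783 and 723 with Control-768 and 1265, 1524 and 1337 with I-BET-762 (0.89 ± 0.081, adjusted p = 0.00391). Eaf2, whose protein binds and stimulates ELL elongation factors, was among the largest rises, from control values of 62.0 to 198 to treated values of 374, 349 and 351 (1.36 ± 0.22, adjusted p = 0.0261). Myc read 5928, 5978 and 1754 with DMSO, 5899, 5929 and 2183 with Control-768 and 5633, 5442 and 1438 with I-BET-762 (-0.21 ± 0.095, adjusted p = 0.326, 95% interval -0.44 to 0.010). The treated array was the lowest of its replicate each time. Its relative Mycn read 373, 394 and 176 with DMSO, 459, 405 and 244 with Control-768 and 75.5, 102 and 63.8 with I-BET-762, a 3.60-fold fall with no overlap (-1.85 ± 0.16, adjusted p = 0.00321). The 2 dimmer probe sets of Mycn, with mean control intensities of 78.7 and 76.9, gave -0.14 and -0.090. Of 12 MYC and MAX network genes the other called was Mxi1, a MAX partner that opposes MYC (-0.27 ± 0.051, adjusted p = 0.0415). Beside these lists and that of BET and P-TEFb genes, 2.82% of all genes were called. Mycn and Ell2 kept their calls without each array. Eaf2 lost its call without any 1 of 7 arrays (0.0808 at most, without I-BET-762 replicate 2) and Mxi1 without any 1 of all 9 (0.166 at most, without I-BET-762 replicate 2).

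No gene passed in the lists of MYC targets, ribosome biogenesis, DNA replication or mitosis, and their medians lay close to 0. At the share of 2.82% called over all genes, lists of this size would hold few calls. None of 38 MYC targets was called (median 0.059), none of 40 ribosome biogenesis genes (0.046), none of 38 DNA replication genes (0.036) and none of 36 genes of G2 and mitosis (-0.084). The members with the smallest p-values were Mthfd2 (0.27 ± 0.070, adjusted p = 0.105), Utp20 (0.24 ± 0.067, adjusted p = 0.13), Orc1 (0.25 ± 0.054, adjusted p = 0.0622) and Cdc25b (-0.38 ± 0.076, adjusted p = 0.0519), in that order of lists. Above 0 were 30 of the 38 MYC targets and 27 of the 38 replication genes, but 2 of the 36 mitotic genes, where 47.4% of all genes were above 0. The median of the MYC targets was 0.11, 0.073 and -0.018 in replicates 1, 2 and 3, and that of the mitotic genes -0.061, -0.053 and -0.16. The median 95% interval over all genes reached 0.22 to either side. Among 20 G1 cyclins and CDK inhibitors, 2 were called, both higher. They are the tumour suppressors Cdkn2a and Cdkn2b, neighbours on chromosome 4. Cdkn2a read 46.9, 69.1 and 506 with DMSO, 70.5, 66.2 and 520.1 with Control-768 and 215, 281 and 688 with I-BET-762 (1.30 ± 0.26, adjusted p = 0.0491). Cdkn2b read 35.5, 24.4 and 93.8 with DMSO, 49.2, 30.7 and 103 with Control-768 and 115, 102 and 139.7 with I-BET-762 (1.02 ± 0.18, adjusted p = 0.0351), or 0.65 with a pseudocount of 64. Both were higher in replicate 3 of every group and overlapped between groups. They lost their calls without any 1 of 8 arrays each (at most 0.2 without I-BET-762 replicate 1 and 0.162 without I-BET-762 replicate 1). Oxidative phosphorylation (23 measured, median 0.024), glycolysis (16, -0.074, 1 member above 0), cholesterol and fatty acid synthesis (22, 0.043), histone genes (9, -0.0072) and the NF-kB pathway (19, 0.045) had no member called. Their members with the smallest p-values were Uqcrfs1 (0.10 ± 0.045, adjusted p = 0.35), Pfkl (-0.34 ± 0.082, adjusted p = 0.0906), Cyp51 (0.28 ± 0.057, adjusted p = 0.0576), H2aw (0.46 ± 0.10, adjusted p = 0.0721) and Nfkbiz (0.84 ± 0.19, adjusted p = 0.0724). In the ATF4 and amino acid response list 1 of 25 was called, the amino acid transporter Slc7a5 (0.41 ± 0.077, adjusted p = 0.0432), with 22 of 25 above 0 and a median of 0.17.

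**Figure D4:**
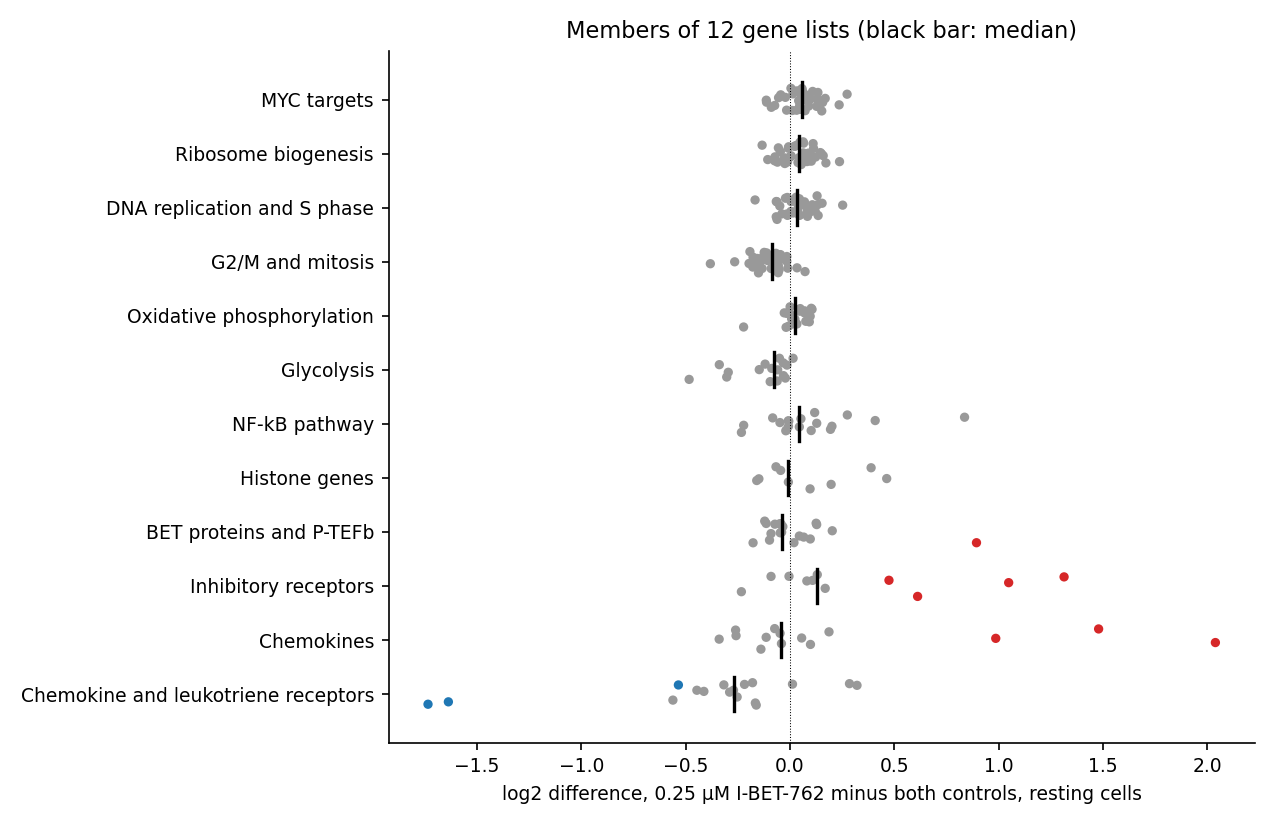
Log2 difference of each measured member of 12 gene lists at 0.25 µM I-BET-762 against both controls; each point is a gene, red or blue where it passed the threshold, and the black bar is the median of the list. The medians of the MYC targets at 0.059 and of the mitotic genes at -0.084 lie near 0. The inhibitory receptors, chemokines and chemokine receptors are among the lists with coloured points.

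Of 34 measured interferon-stimulated genes 4 fell and 1 rose, against 1.96% and 0.857% of all genes, with a median of -0.057 and 13 members above 0. Ifitm3 was by far the largest of the called falls. Oas3, an antiviral oligoadenylate synthetase, went from control values of 146 to 202 to treated values of 97.4, 101 and 105 (-0.73 ± 0.090, adjusted p = 0.0117). The GTPase Irgm1 fell from control values of 562 to 1059 to treated values of 853, 769.8 and 461 (-0.36 ± 0.059, adjusted p = 0.0285). The RNA sensor Ddx58 was lower (-0.40 ± 0.067, adjusted p = 0.0305) and the nucleic acid sensor Zbp1 higher (0.57 ± 0.10, adjusted p = 0.0351). Usp18, singled out after its values were seen, read 157, 148 and 47.7 with DMSO, 117, 129.6 and 74.5 with Control-768 and 14.8, 18.7 and 47.6 with I-BET-762. There was a wide gap in replicates 1 and 2 and a treated value next to that of DMSO in replicate 3 (-1.57 ± 0.37, adjusted p = 0.0834). Ifitm3 kept its call without each array. These lost theirs without any 1 of this many arrays, with the highest adjusted p: Oas3 (2, 0.0685 without I-BET-762 replicate 2), Irgm1 (8, 0.131 without I-BET-762 replicate 2), Ddx58 (8, 0.129 without I-BET-762 replicate 2) and Zbp1 (8, 0.147 without I-BET-762 replicate 1).

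Rgs16, Egr2, Dusp6 and Dusp4, genes induced through the T cell receptor, rose in these resting cells, which had been primed but not restimulated. Of 35 immediate early and receptor-induced genes these 4 were called higher and none lower, where 0.857% of all genes were called higher, the median was 0.13, and 24 were above 0. Rgs16, a regulator of G protein signalling, read 62.4, 77.2 and 45.5 with DMSO, 67.7, 72.0 and 58.2 with Control-768 and 121, 179 and 151 with I-BET-762 (1.06 ± 0.11, adjusted p = 0.00593), without overlap. Egr2, a zinc finger factor linked to T cell anergy, read 242, 277 and 124 with DMSO, 379.5, 225 and 164 with Control-768 and 622, 557 and 331 with I-BET-762 (1.08 ± 0.15, adjusted p = 0.0184). The MAP kinase phosphatases Dusp6 (0.72 ± 0.11, adjusted p = 0.0236) and Dusp4 (1.04 ± 0.18, adjusted p = 0.0338) were the others. Egr1 had the largest difference of the list and did not pass; its controls alone ranged from 233 to 4770.3 (1.31 ± 0.28, adjusted p = 0.0612). Of 19 genes of the receptor complex and its signalling 2 were lower, where 1.96% of all genes were called lower. Cd5, which dampens receptor signalling, went from control values of 1278 to 1801 to treated values of 1161, 1365 and 1026 (-0.41 ± 0.066, adjusted p = 0.0266). The phospholipase Plcg1 was the other (-0.28 ± 0.051, adjusted p = 0.0366). In the complex itself Cd3d, Cd3e, Cd3g and Cd247 gave 0.052, -0.023, 0.059 and 0.037, and none of them passed. Rgs16 kept its call without each array. These lost theirs without any 1 of this many arrays, with the highest adjusted p: Egr2 (4, 0.0954 without I-BET-762 replicate 2), Dusp6 (7, 0.104 without I-BET-762 replicate 1), Dusp4 (9, 0.147 without I-BET-762 replicate 1), Cd5 (9, 0.0817 without I-BET-762 replicate 1) and Plcg1 (9, 0.14 without I-BET-762 replicate 2).

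The remaining lists gave scattered calls, beside 0.857% of all genes higher and 1.96% lower. Naive and quiescence genes had 3 of 23 lower, Igfbp4, Il7r and the PI3K inhibitor Pik3ip1 (-0.50 ± 0.076, adjusted p = 0.0227), and none higher (median -0.034). Of 20 integrins and homing receptors, the calls were Itgav (-0.40 ± 0.055, adjusted p = 0.0169) and Itga3 (-1.18 ± 0.18, adjusted p = 0.0226) lower and Selp, P-selectin, higher, the latter from control values of 21.96 to 32.7 to treated values of 88.0, 47.1 and 103 (1.07 ± 0.18, adjusted p = 0.0309). In the TNF receptor superfamily Tnfrsf13b, the receptor TACI, went from control values of 827 to 1561 to treated values of 913, 835 and 668 (-0.60 ± 0.090, adjusted p = 0.0218). The death domain receptor Tnfrsf25 was also lower (-0.52 ± 0.088, adjusted p = 0.0305), as 2 of 15 measured. In the BCL2 family 2 of 13 were higher, the proapoptotic Pmaip1 (0.56 ± 0.085, adjusted p = 0.0234), which is also the 1 of 18 p53 targets called, and the antiapoptotic Bcl2l1 (0.31 ± 0.057, adjusted p = 0.0389). Socs1, a feedback inhibitor of cytokine signalling, was the 1 of 10 feedback genes called (-0.35 ± 0.065, adjusted p = 0.0409). The MHC class II invariant chain Cd74, from the dendritic cell markers, was lower (-0.71 ± 0.12, adjusted p = 0.0302) at control intensities of 47.2 to 98.6. These calls were lost without any 1 of this many arrays, with the highest adjusted p: Pik3ip1 (7, 0.0998 without I-BET-762 replicate 2), Itgav (6, 0.0953 without I-BET-762 replicate 2), Itga3 (7, 0.0708 without I-BET-762 replicate 2), Selp (8, 0.141 without I-BET-762 replicate 1), Tnfrsf13b (7, 0.103 without I-BET-762 replicate 1), Tnfrsf25 (8, 0.141 without I-BET-762 replicate 1), Pmaip1 (7, 0.111 without I-BET-762 replicate 1), Bcl2l1 (9, 0.148 without I-BET-762 replicate 2), Socs1 (9, 0.153 without I-BET-762 replicate 2) and Cd74 (7, 0.13 without I-BET-762 replicate 2). With a pseudocount of 64 Itga3 gave -0.78 and Selp 0.62. Dimmer probe sets of Itga3, with mean control intensities of 26.3 and 15.1, gave 0.20 and 0.0089.

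Several of the largest rises were in genes outside the lists above. Pls1, plastin 1, an actin-bundling protein best known from epithelial microvilli, read 111, 79.7 and 46.8 with DMSO, 92.2, 65.7 and 85.0 with Control-768 and 443, 352 and 400.1 with I-BET-762, a 4.40-fold rise (2.14 ± 0.16, adjusted p = 0.00222). Fgf13, an intracellular fibroblast growth factor homologue, read 341, 245 and 184 with DMSO, 327, 209 and 204 with Control-768 and 979, 666 and 507 with I-BET-762 (1.44 ± 0.072, adjusted p = 7.78e-04). Replicates ran in parallel there, with steps of 1.51, 1.49 and 1.32, while a second, dim probe set of Fgf13 gave 0.11. Sema6d, a transmembrane semaphorin, went from control values of 3.95 to 10.6, under the pseudocount of 16, to treated values of 71.4, 37.3 and 32.8 (1.41 ± 0.17, adjusted p = 0.0109). With pseudocounts of 1 and 64 it gave 2.54 and 0.63. Other probe sets of Sema6d, with mean control intensities of 8.2, 8.0 and 10.4, gave 0.0073, 0.16 and 0.0029. Morrbid, a long noncoding RNA known to repress the proapoptotic gene Bcl2l11 in cis, went from control values of 229.7 to 468 to treated values of 749, 524 and 948 (1.27 ± 0.12, adjusted p = 0.00502), and its other probe set gave 0.89. Ccn4, a matricellular protein, was also dim, with control values of 5.68 to 17.8 and treated values of 42.6, 44.7 and 64.3 (1.21 ± 0.16, adjusted p = 0.0142), and pseudocounts of 1 and 64 gave 1.96 and 0.58. Its call ended without either of 2 arrays (0.0801 at most, without I-BET-762 replicate 2). The orphan receptor Gpr160 rose too (1.21 ± 0.13, adjusted p = 0.00727), or by 0.77 with a pseudocount of 64. Pls1, Fgf13, Sema6d, Morrbid and Gpr160 kept their calls without each array in turn.

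Against each control alone the differences had the same direction in all 513 genes. These genes were called on the same arrays against both controls together, so their shared direction and their calls below are no independent check. With 3 control arrays in place of 6, 106 genes passed against DMSO (0.583%) and 106 against Control-768 (0.583%), and 85 of the 513 passed against both. Of the 12 largest falls 10 passed against DMSO alone and 11 against Control-768 alone; of the 12 largest rises, 7 and 6. Ifitm1 differed from DMSO by -2.30 ± 0.058, adjusted p = 2.18e-04, and from Control-768 by -2.36 ± 0.058, adjusted p = 1.88e-04. Il10 differed from DMSO by 1.89 ± 0.24, adjusted p = 0.0424, and from Control-768, whose Il10 ran higher, by 1.45 ± 0.24, adjusted p = 0.0801. Tbx21 missed the threshold against each (0.50 ± 0.074, adjusted p = 0.0564, and 0.46 ± 0.074, adjusted p = 0.0743). No gene passed between Control-768 and DMSO (0 of 18193, smallest adjusted p = 0.845), with 844 at an unadjusted p under 0.05 (4.64%). Among the 513 genes the median size of the difference between the controls was 0.047 and the largest 0.43.

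At 0.5 µM some of the leading genes fell further than at 0.25 µM. The contrast of 0.5 against 0.25 µM in resting cells had 86 genes past the threshold (0.473%), 14 higher (0.077%) and 72 lower (0.396%). The genes named here were chosen on the 0.25 µM arrays, which also enter this contrast. Of the 12 largest falls, 6 fell further: Shroom3 (-2.58 ± 0.26, adjusted p = 0.0117), Cysltr1 (-2.19 ± 0.19, adjusted p = 0.00661), Igfbp4 (-1.60 ± 0.19, adjusted p = 0.0166), F3 (-1.42 ± 0.23, adjusted p = 0.0393), Mycn (-1.35 ± 0.16, adjusted p = 0.0166) and Tmem108 (-1.22 ± 0.14, adjusted p = 0.0166). Shroom3 read 27.5, 95.2 and 10.6 at 0.5 µM and Cysltr1 132, 170.2 and 78.1, below their values at 0.25 µM in every replicate. No further step was seen for Ifitm1, which read 414, 731 and 1087 (0.23, 95% interval -0.17 to 0.63), for Muc13 (-0.19, 95% interval -0.95 to 0.57) or for Itga7 (0.053, 95% interval -0.41 to 0.52). Ifitm3 (-1.26, 95% interval -1.83 to -0.68) and Itpripl2 (-1.23, 95% interval -1.72 to -0.75) had intervals below 0. Neither passed (adjusted p = 0.0923 and 0.0541 with limma). For Ccr2 the interval held 0 (-0.40, 95% interval -0.93 to 0.12). Of the 12 largest rises none passed in this contrast. Eaf2 (-0.018, 95% interval -0.58 to 0.55), Sema6d (0.27, 95% interval -0.25 to 0.79) and Pls1 (0.34, 95% interval -0.13 to 0.80) had intervals that hold 0. Il10 (1.39, 95% interval 0.82 to 1.95), Lag3 (1.42, 95% interval 0.83 to 2.01) and Ccl3 (1.21, 95% interval 0.32 to 2.10) had intervals above it without passing (adjusted p = 0.0585, 0.0686 and 0.277). Tbx21 lay just outside (0.51 ± 0.086, adjusted p = 0.0509), and neither Myc (-0.60 ± 0.25, adjusted p = 0.386) nor Hexim1 (0.53 ± 0.15, adjusted p = 0.239) passed. When 0.5 µM was set against both controls with limma, Hexim1 passed (0.59 ± 0.10, adjusted p = 0.0152). Myc did not (-0.81 ± 0.23, adjusted p = 0.0955). The 3 largest further falls of the contrast were Procr, the endothelial protein C receptor (-2.70 ± 0.32, adjusted p = 0.0166), Shroom3 and Cysltr1. The 3 largest further rises were Klf3 (1.62 ± 0.23, adjusted p = 0.0281), Ccl5 (1.59 ± 0.25, adjusted p = 0.0393) and the sulfotransferase Chst2 (1.13 ± 0.13, adjusted p = 0.0166), and Klf3 alone of these had not passed at 0.25 µM (0.19 ± 0.13, adjusted p = 0.522). The contrast was fitted on the 12 resting arrays: it gave 0 calls without replicate 1, 2 or 3 of every group and 0 to 114 without any 1 array.

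The same concentration in cells restimulated for 4 h, on 9 other arrays, gave 242 called genes (1.33%), of which 132 were also called in resting cells, all in the same direction. They are 25.7% of the resting calls and 54.5% of the restimulated ones. Of the 513 resting genes 459 had the same sign after restimulation (89.5%, against 58.1% of all genes). Whether arrays of the same number in the 2 states came from 1 culture is not given. All 12 largest falls had the same sign after restimulation and 11 were called, as with Ifitm1 (-1.99 ± 0.068, adjusted p = 1.30e-04) and Muc13 (-2.05 ± 0.24, adjusted p = 0.0139). All 12 largest rises had the same sign and 6 were called, among them Pls1 (1.52 ± 0.12, adjusted p = 0.00287), Lag3 (1.06 ± 0.062, adjusted p = 7.37e-04) and Sema6d (2.07 ± 0.25, adjusted p = 0.0149). Ccl3 (0.42 ± 0.24, adjusted p = 0.491), Ccl4 (0.49 ± 0.24, adjusted p = 0.418), Egr2 (-0.080 ± 0.19, adjusted p = 0.899), Tbx21 (0.10 ± 0.10, adjusted p = 0.716) and Btla (0.015 ± 0.057, adjusted p = 0.943) were called in resting cells and did not pass after restimulation. A difference between the states was not established for any gene: none of 18193 passed the interaction of state and compound with limma (smallest adjusted p = 0.133), with 1722 at an unadjusted p under 0.05 (9.47%) and a median 95% interval of 0.32 to either side. The response after restimulation minus that in resting cells was -1.62, 95% interval -2.25 to -0.99 for Ccl3. It was -1.16, 95% interval -1.72 to -0.60 for Egr2, and -0.46, 95% interval -0.61 to -0.31 for Btla. Ccl3, Egr2 and Btla were called on the resting arrays, which also enter this interaction. Egr2 and Btla are not among the 12 largest rises and falls. The interval held 0 for 8 of the 12 largest falls and for 8 of the 12 largest rises. Mycn (0.058, 95% interval -0.50 to 0.61) and Fgf13 (-0.0029, 95% interval -0.24 to 0.23) had intervals around 0.

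**Figure D5:**
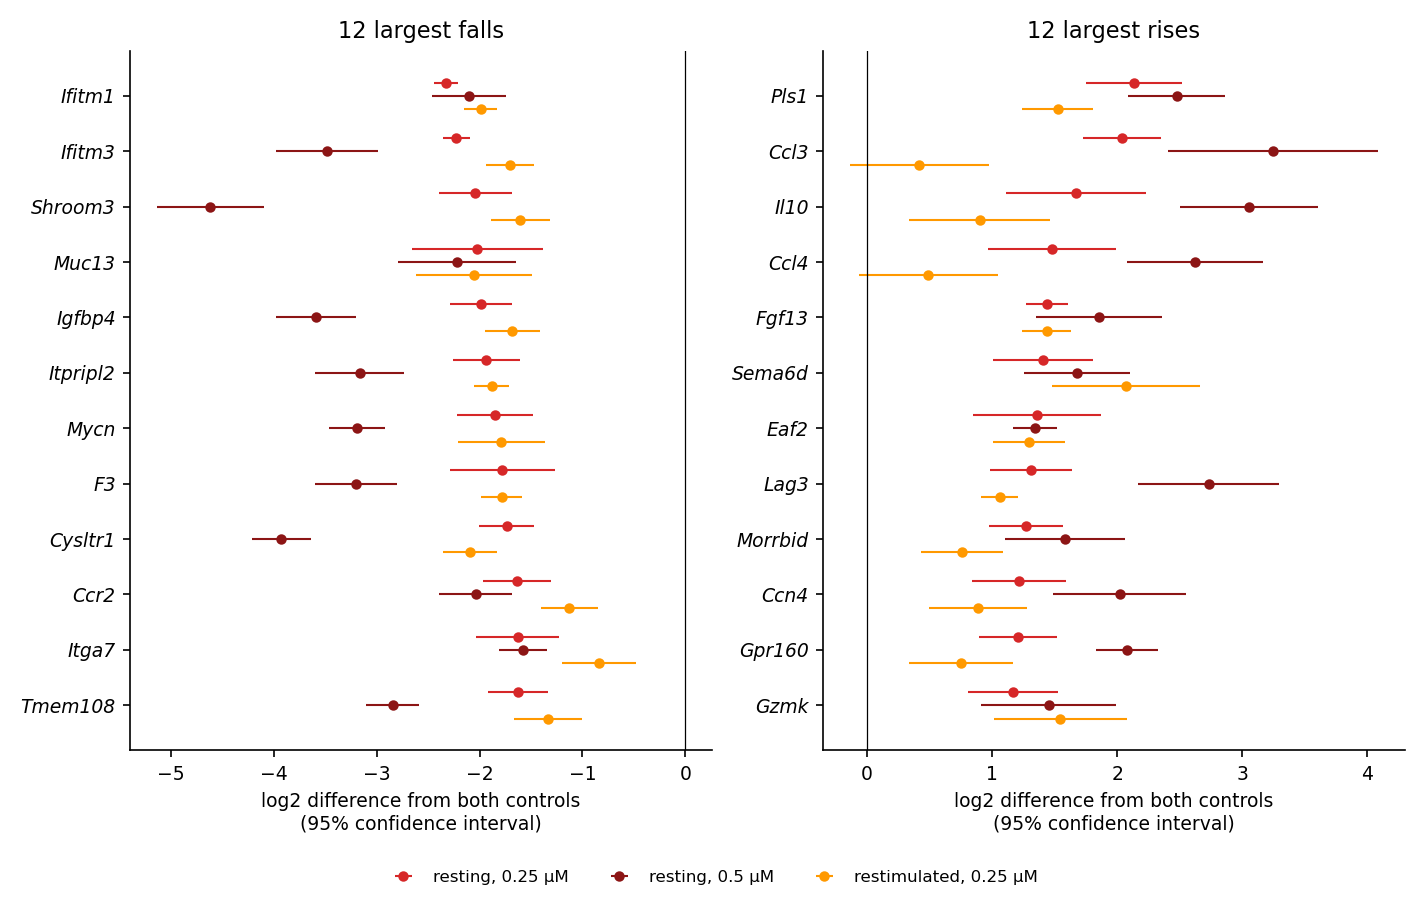
Log2 difference from both controls of the same state, with 95% confidence intervals, for the 12 largest falls (left) and rises (right) in resting cells at 0.25 µM (red), resting cells at 0.5 µM (dark red) and restimulated cells at 0.25 µM (orange). The red and dark red points share their control arrays; Shroom3 and Cysltr1 lie further left at 0.5 µM, Ifitm1 and Eaf2 have overlapping intervals at both concentrations, and the orange interval of Ccl3 crosses 0.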

How the data were processed

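Probe set intensities of 24 arrays were used on the linear scale the authors deposited. The sources used here do not give how the authors summarised and normalized them. Per the labels' protocols, RNA was amplified in 2 rounds before biotin labelling, so that low transcripts carry amplification error. Of 45101 probe sets 34945 named 1 gene, and the brightest per gene was kept (18193 genes). Values were taken as log2(intensity + 16) and fitted with limma 3.58.1 in R 4.3.3 (empirical Bayes, two-sided, Benjamini-Hochberg over all genes, threshold 0.05), with both controls as 1 group and the replicate number as a block. Same-numbered arrays of different groups had correlated deviations from their group means (r of 0.33 to 0.70 in 9 pairs), and different numbers -0.53 to 0.30. The negative values all involved replicate 3, and deviations from a group mean push different numbers apart. Between replicates 1 and 2, different numbers gave 0.14 to 0.30, and the same numbers 0.33 to 0.45. The pairing of replicates 1 and 2 thus rests on a small difference. The number of arrays limits the precision.

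Genes named were a fixed set of 10, the 12 largest non-overlapping rises and falls, and up to 3 called members (or the 1 of smallest p) per list; others are said to be chosen after their values were seen or are called members given for completeness. Members and lists were chosen with earlier results of these data known. The fit was tested on simulated data. Alternatives covered the block, the arrays fitted, the pseudocount, a filter on dim genes, quantile normalization, shared probe sets, an intensity trend and each array left out.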

Additional observations from a re-analysis of the deposited data

Results flagged for a closer look

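Ell2 had 1 control array apart from the others. DMSO replicate 3 read 603, and the other 5 control arrays 723 to 783. The gap is 0.696 of the range of the 6 arrays on the log2 scale, above Dixon's critical value for 6 values, which chance passes in about 1 of 20 groups. Ell2 kept its call without each of the 9 arrays.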

How the results depend on the processing

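All 513 genes kept their sign under every alternative that tested them except the removal of shared probe sets, where 463 of 466 did. They were called on these same arrays, so a kept sign is no independent support. The number called moved widely, and the causes were not tested. With no replicate block 54 genes passed against both controls, 11 against DMSO alone, 15 against Control-768 alone and 3 between concentrations. In the same order, a pseudocount of 1 gave 340, 25, 24 and 38, a pseudocount of 64 gave 906, 399, 353 and 156, genes of mean intensity of at least 64 gave 1159, 512, 499 and 192, and an intensity trend gave 1110, 503 and 513 for the first 3. Separate control means gave 235 and all 12 resting arrays 124, 47 and 48. All 24 arrays gave 217 against both controls and 211 between concentrations, and quantile normalization 41 between concentrations. Leaving out arrays or replicates gave 7 to 361, 0 to 87, 0 to 61 and 0 to 114. The interaction with restimulation, 0 genes, gave 12, 11 and 28 with the pseudocount of 64, the dim filter and the trend, and 0 to 2 with arrays left out. Lower genes were 69.6% of the calls, and 81.0% without replicate 3. Without shared probe sets Brd2 turned to 0.074, Tox2 to -0.66 and H2aw to -0.0089. Brd2 turned to 0.025 and Il2 to -0.048 without replicate 3 or its treated array, and Hexim1 to -0.0054 and -0.0064 without replicate 1 or 2 or their treated arrays. Over the removals of a replicate or an array Brd2 ran from -0.15 to 0.025, Hexim1 from -0.0064 to 0.21 and Il2 from -0.048 to 0.42. Of 78 called genes named, 29 kept the call without each array.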

Other observations

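Of 16470 protein-coding genes placed in RefSeq's order 502 were called, and 12.9% of these had a called gene next to them, against 5.94% of all genes. The 35 neighbouring pairs held 27 with both genes lower, 4 with both higher and 4 opposite. The run on chromosome 7 goes from Ifitm2 through Ifitm1, Ifitm3 and Ifitm6 to B4galnt4 (-0.71 ± 0.066, adjusted p = 0.00405 with limma). No test of this clustering was made.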
